A study of Mus musculus with 2 samples.

Results

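The genes described here are those of the mouse major histocompatibility complex (MHC) and of antigen presentation: every array gene name that starts with H2-, the mouse prefix of MHC genes, and B2m, Tap1, Tap2, Tapbp, Cd74, Ciita, Nlrc5, Psmb8, Psmb9 and Psmb10. By this rule 52 genes with 87 probes were found among the 37008 gene names of the array. They comprised 3 classical class I genes, 28 nonclassical class I genes, 12 class II genes, 8 processing genes and H2-Ke6, which carries an H2 name but codes for a metabolic enzyme. The genes were chosen by name, after the difference between these same arrays had shown class I and class II genes lower, so that every count below is a description.

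Expression was measured in 46C mouse embryonic stem cells, cultured in serum with leukaemia inhibitory factor (LIF) over feeder cells and harvested once those feeders had been taken away. One array held RNA of cells with a control short hairpin (shCtrl), and 1 array held RNA of cells in which a hairpin targeted LincU (shLincU), a long noncoding RNA. The labels give no clone, passage or second hairpin, and they title the shCtrl sample as WT. By its title, the study asked whether LincU holds cells in naive pluripotency by limiting ERK activity. With 1 array per group there was no replicate check and no test, and a difference between the arrays compares those RNA samples. LincU was not analysed here, because no probe was matched to it, so each direction rests on the labels.

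MHC class I molecules carry peptides from inside the cell to its surface, where T cells and natural killer cells read them. A class I heavy chain folds with beta-2 microglobulin and is loaded with peptides that the proteasome cuts and the TAP transporter pumps into the endoplasmic reticulum. Class II molecules carry peptides from endosomes and are found mainly on dendritic cells, B cells and macrophages. Embryonic stem cells are known for low surface class I and for lacking class II, and interferon gamma raises class I and processing genes together in most cell types.

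Levels are given as log2 signal relative to the 75th percentile of the same array, an intensity of 625.6 for shCtrl and 420.4 for shLincU. A level is comparable between the arrays but not between probes. Differences are shLincU minus shCtrl on the log2 scale, averaged over the probes of a gene that were well above background on both arrays. Of the 52 genes, 34 were measured on both arrays, 3 passed the background flag on the shCtrl array only, 0 on the shLincU array only, and 15 on neither. The scanner software gave a typical gene an error of 0.20 log2, mostly preset, and the probes of 1 gene had a median SD of 0.18 over the 7144 genes with several measured probes.

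Of the 34 measured members 28 were lower on the shLincU array and 6 were higher, with a median difference of -0.43. Among the 21018 genes measured on both arrays 47.0% were below 0 and the median was 0.02. The middle part of all genes, from the lower to the upper quartile, ran from -0.17 to 0.20, and 2.5% of genes lay below -0.83. At 2-fold or more, 1 member was lower, H2-Ab1, where 1.54% of all genes were, and 1 was higher, Psmb8, where 1.14% of all genes were. At 1.5-fold or more, 7 members were lower and 2 were higher, against 4.84% and 4.77% of all genes. Class I and class II genes thus sat mostly on the lower side in small steps, and the processing genes lay on both sides.

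**Figure D1:**
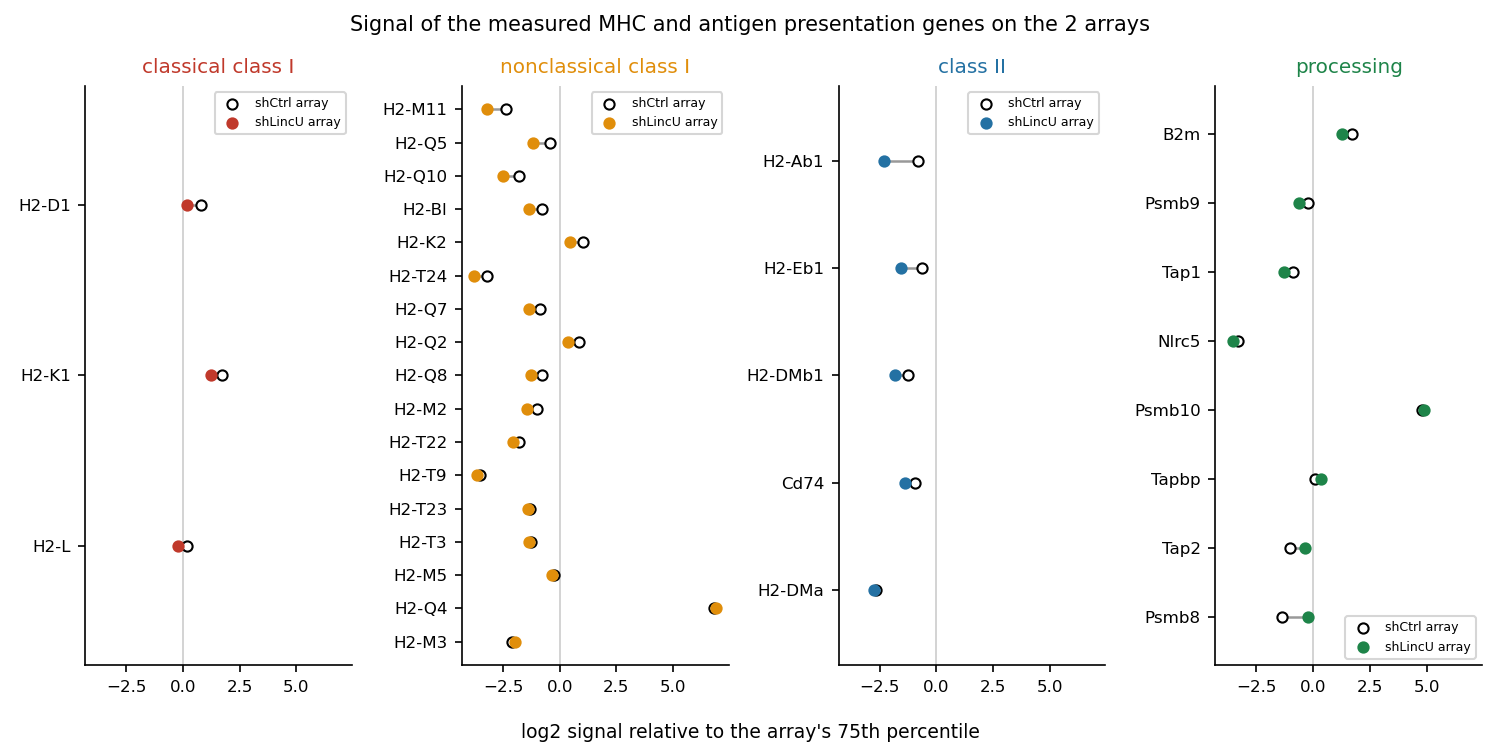
Log2 signal of each measured member relative to the 75th percentile of its array, with open circles for the shCtrl array and filled circles for the shLincU array; levels of different genes are not comparable. All 3 classical class I and all 5 class II genes lie to the left on the shLincU array, 15 of 17 nonclassical genes do, and 4 of 8 processing genes do.

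Class I genes are near copies of each other, and some of their probes share long runs of sequence; cross-hybridisation was not tested. Of the 49 class I probes, 7 probes of 7 genes held a run of at least 15 bases that also lay in a probe of another class I gene, and the longest such run had 31 bases. The probes of H2-K1, H2-L and H2-T23 printed here show the extreme case. The capitals mark a run of 29 bases common to all 3, which codes for the end of the membrane-spanning segment of the class I heavy chain.
H2-K1: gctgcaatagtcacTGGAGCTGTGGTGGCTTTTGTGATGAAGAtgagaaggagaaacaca
H2-L: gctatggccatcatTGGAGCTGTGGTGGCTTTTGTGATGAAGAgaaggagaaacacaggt
H2-T23: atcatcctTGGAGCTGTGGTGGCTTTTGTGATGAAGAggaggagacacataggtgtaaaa
On the array's build, mm9, they lie at chr17:34133984-34134043 on the minus strand, chr17:35403191-35403250 on the plus strand and chr17:36167338-36167574 on the minus strand. The H2-L probe lies just upstream of the H2-D1 probe at chr17:35403886-35403945, on the same strand, so the array places both genes at 1 locus. Of all member probes, 9, from 6 genes, list an accession that RefSeq gives to another gene. A value of 1 class I gene is therefore uncertain as to the gene, and class I values of neighbouring genes are not independent.

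The probe of Psmb8, the only member at least 2-fold higher, and 1 of the 4 probes of H2-Ab1, the only member at least 2-fold lower, are shown next. This H2-Ab1 probe was below the background flag on the shLincU array and has no part in the gene's value, and the 3 probes that carry the value were not searched for shared runs. In both probes the longest run shared with a probe of another gene name anywhere on the array was 13 bases, in capitals here.
Psmb8: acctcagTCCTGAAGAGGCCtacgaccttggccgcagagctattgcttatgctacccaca
H2-Ab1: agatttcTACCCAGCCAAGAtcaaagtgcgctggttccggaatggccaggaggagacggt
They lie at chr17:34337771-34337830 and chr17:34404357-34404416 of mm9, both on the plus strand.

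The classical class I genes code for the heavy chains that present peptides to cytotoxic T cells, and all 3 were lower on the shLincU array, with a median difference of -0.48. The H2-D1 probe had an intensity of 1072.3 for shCtrl and 474.6 for shLincU, or log2 levels of 0.78 and 0.18. Its difference was -0.60 with a scanner error of 0.20, and 955 of all measured genes were as low or lower. H2-K1 had 2 probes, whose mean level was 1.71 on the shCtrl array and 1.23 on shLincU. The brighter H2-K1 probe went from an intensity of 4647.0 to 2506.5 and differed by -0.32, and the dimmer one, which holds the shared run, went from 903.7 to 389.4 and differed by -0.64. The 2 probes lay on the same side and gave a mean of -0.48 with an SD of 0.23. H2-L stood at 0.19 and -0.23, a difference of -0.42, and its 2 probes differed by -0.54 and -0.29. The array lists both H2-L probes under a transcript that RefSeq gives to H2-D1. The values of H2-L and H2-D1 may therefore come from 1 locus. The 3 gene names were thus 1.34-fold to 1.52-fold lower, and H2-D1 alone of them reached 1.5-fold, as 4.84% of all genes did.

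Nonclassical class I genes are less variable between individuals and have more restricted roles. Of 28, 17 were measured on both arrays, 15 of them lower on the shLincU array, with a median of -0.45 and a range from -0.83 to 0.13. The widest difference was that of H2-M11, a dim gene of the M region: its probe went from an intensity of 119.9 to 45.33, or from a level of -2.38 to -3.21, a difference of -0.83 with a scanner error of 0.25. H2-Q5, whose probe the array lists under a noncoding transcript, went from an intensity of 465.1 to 183.1, a difference of -0.77. Its spot lay beside spots that differed at least 2-fold in a direction they shared with each other. Whether H2-Q5 shared that direction was not recorded, and the part of that neighbourhood in its value was not tested.

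H2-Q10, a class I molecule secreted mainly by the liver, had 4 measured probes, and all 4 were lower on the shLincU array. Their intensities ran from 106.1 to 257.4 for shCtrl and 46.53 to 138.9 for shLincU. The single probes differed by -0.99, -0.82, -0.62 and -0.32, with a mean of -0.69 and an SD of 0.29. The probe with the smallest difference was the brightest. The blastocyst MHC gene H2-Bl had 2 probes, at -0.68 and -0.50, and a mean of -0.59. H2-K2, whose probe is also listed under a noncoding transcript, went from an intensity of 1273.7 to 571.6, a difference of -0.58. Probe by probe these genes lay on 1 side, and no probe of H2-Q10, H2-Bl, H2-Q7, H2-K1 or H2-L was above 0.

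H2-Q4 and H2-M3 were the 2 nonclassical genes above 0. H2-Q4, of the Q region, had an intensity of 69107.9 on the shCtrl array and 50667.9 on shLincU, and a difference of 0.13 with a scanner error of 0.20. H2-M3, which presents N-formylated peptides of bacteria and mitochondria, also had a difference of 0.13. Both differences were smaller than the scanner error. The 3 probes of H2-Q7, one of the genes behind the Qa-2 antigen of preimplantation embryos, differed by -0.63, -0.47 and -0.39. H2-T23, the Qa-1 molecule that natural killer cells read through CD94/NKG2A, had 2 probes by the array's names, on both sides of 0, at -0.46 and 0.23, with an SD of 0.49. The lower one is the probe printed above, and the higher one lists an accession that RefSeq gives to the pseudogene H2-T-ps. H2-M5 also had probes on both sides, from -0.28 to 0.15. The other measured nonclassical genes ran from -0.56 to -0.09.

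H2-T10, a ligand of gamma-delta T cells, was well above background on the shCtrl array only, with an intensity of 36.72 there and 20.08 on the shLincU array, at least 1.19-fold lower there. A further 10 names were not well above background on either array. These were H2-M1, the 6 H2-M10 genes, which are known from the vomeronasal organ, H2-M9, H2-Q1 and H2-T18, with intensities from 4.13 to 8.11.

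**Figure D2:**
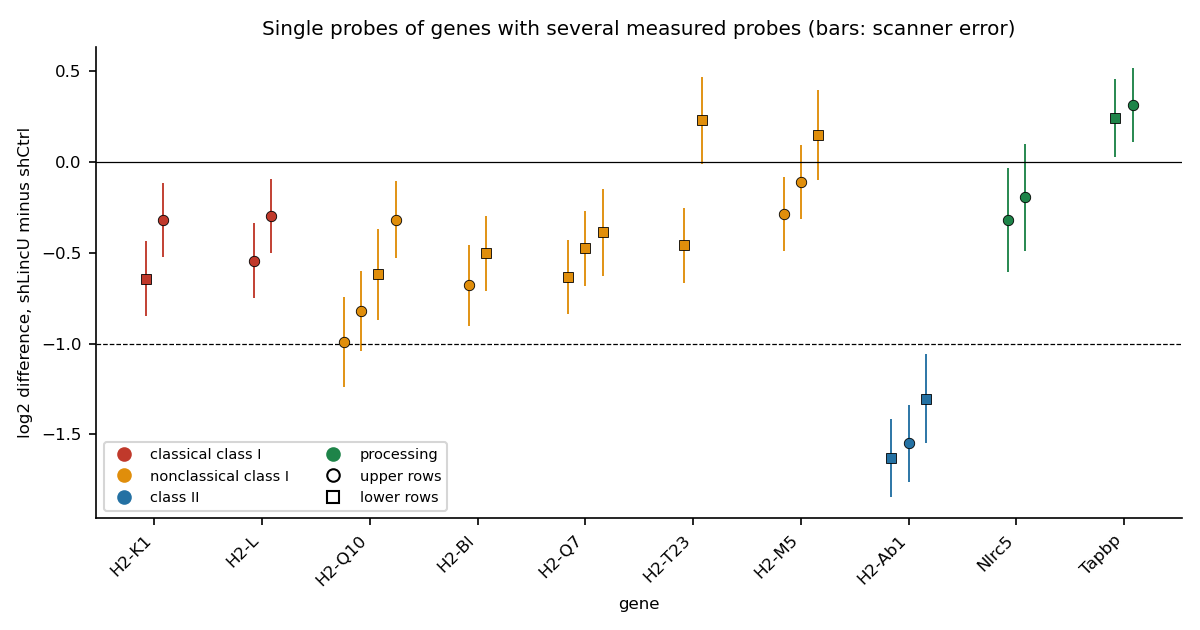
Log2 difference of each probe of the members with several measured probes, with bars for the scanner software's error; circles are spots in the upper rows of the array and squares spots in the lower rows. The 3 H2-Ab1 probes lie between -1.63 and -1.30, below all other probes shown, and H2-T23 and H2-M5 have probes on both sides of 0.

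Class II genes had the lowest median of the 4 groups, -0.58, over the 5 of 12 that were measured on both arrays, and all 5 were lower on the shLincU array. H2-Ab1, the beta chain of the I-A molecule, was the member with the widest difference. Its 3 measured probes had intensities of 492.4, 178.7 and 495.3 on the shCtrl array and 113.1, 48.66 and 107.6 on the shLincU array. They differed by -1.55, -1.30 and -1.63, a mean of -1.49 with an SD of 0.17, or 2.82-fold lower. The first and last of these probes overlap at the gene's 3′ end, so they are close to 1 measurement. The fourth probe, printed above, was well above background on the shCtrl array only, with intensities of 46.92 and 17.74. Of all measured genes 121 were as low as H2-Ab1 or lower.

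H2-Eb1, the beta chain of the I-E molecule, went from an intensity of 400.9 to 141.7, or from -0.64 to -1.57, a difference of -0.93 with an error of 0.21. H2-DMb1, a chain of the H2-DM molecule that exchanges peptides on class II, went from 262.8 to 118.1 and differed by -0.58. Cd74, the invariant chain that guides class II to endosomes, went from 323.6 to 159.6 and differed by -0.45. H2-DMa, the partner of H2-DMb1, differed by -0.11, less than its error of 0.24. Among the measured genes the beta chains of the 2 surface molecules thus lay lowest, followed by the loading factors.

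Several other class II genes, among them the partner of H2-Ab1, were not well above background. H2-Aa, which codes for the alpha chain that pairs with H2-Ab1, had an intensity of 4.83 for shCtrl and 4.19 for shLincU, and H2-Ea-ps, H2-Eb2, H2-DMb2 and H2-Oa were also not well above background on either array. Ciita, the transactivator of class II genes, had 1 of its 4 probes well above background on the shCtrl array, at 36.16 against 15.49, at least 1.17-fold lower on the shLincU array. H2-Ob, a chain of the H2-DM inhibitor H2-O, had 1 such probe, at 31.02 against 11.79, at least 1.01-fold lower. Both bounds are near 1. Genes seen on the shCtrl array alone made up 7.20% of the 23286 genes seen on either array, and genes seen on the shLincU array alone 2.44%.

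The 8 processing genes were all measured and split evenly, 4 lower and 4 higher on the shLincU array, with a median of -0.07. B2m, the light chain of every class I molecule, went from an intensity of 2066.5 to 1005.5, or from a level of 1.72 to 1.26, a difference of -0.47. Psmb9, an immunoproteasome subunit, went from 538.1 to 270.8 and differed by -0.42. Tap1, whose gene starts next to Psmb9 in the opposite direction, went from 338.4 to 173 and differed by -0.39, and its spot lay beside spots that differed at least 2-fold. Nlrc5, the transactivator of class I genes, was dim on both arrays: its 2 probes had 60.73 and 66.32 on the shCtrl array and 35.67 and 35.75 on the shLincU array, a mean difference of -0.26. B2m, Psmb9 and Tap1 thus differed by about as much as the class I heavy chains. Under a looser background filter, the positive and significant flag, a dimmer probe joined B2m and Tap1. They were then at -0.26 and -0.25, while Psmb9 stayed at -0.42.

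On the other side, Psmb8, the immunoproteasome subunit encoded between Tap1 and Tap2, went from an intensity of 238.8 on the shCtrl array to 360.2 on the shLincU array, the only processing gene besides Tap2 whose raw intensity was higher there. Its level went from -1.39 to -0.22, a difference of 1.17 or 2.24-fold with an error of 0.21, and 168 of all measured genes were as high or higher. Tap2, which forms the peptide transporter with Tap1, went from 306.5 to 324.1, a difference of 0.65. Tapbp, or tapasin, which bridges TAP and class I, had 2 probes at 0.24 and 0.31, and Psmb10, the third immunoproteasome subunit, differed by 0.12. Psmb8 and Tap2 rested on 1 measured probe each, as did B2m, Psmb9, Tap1 and Psmb10.

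The rows of those probes on the array were close to each other. The probes of Psmb8 and Tap2 and the dimmer Tapbp probe lay in rows 317, 314 and 316 of 384. Spots at least 2-fold apart made up 4.11% of the lower rows and 1.33% of the upper rows, and the dimmer Tapbp probe had such neighbours. The Psmb8 and Tap2 probes did not, and their differences remained 1.17 and 0.65 when spots beside discordant spots were left out. The Tapbp probe in the upper rows, at row 188, was also higher on the shLincU array, by 0.31. No other probe of Psmb8 exists on the array, and whether position had a part in its difference was not tested.

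H2-Ke6, also known as Hsd17b8, lies within the complex but has no role in presentation. Its 2 probes differed by 0.05 and -0.22, and its mean of -0.08 was within its error of 0.14.

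**Figure D3:**
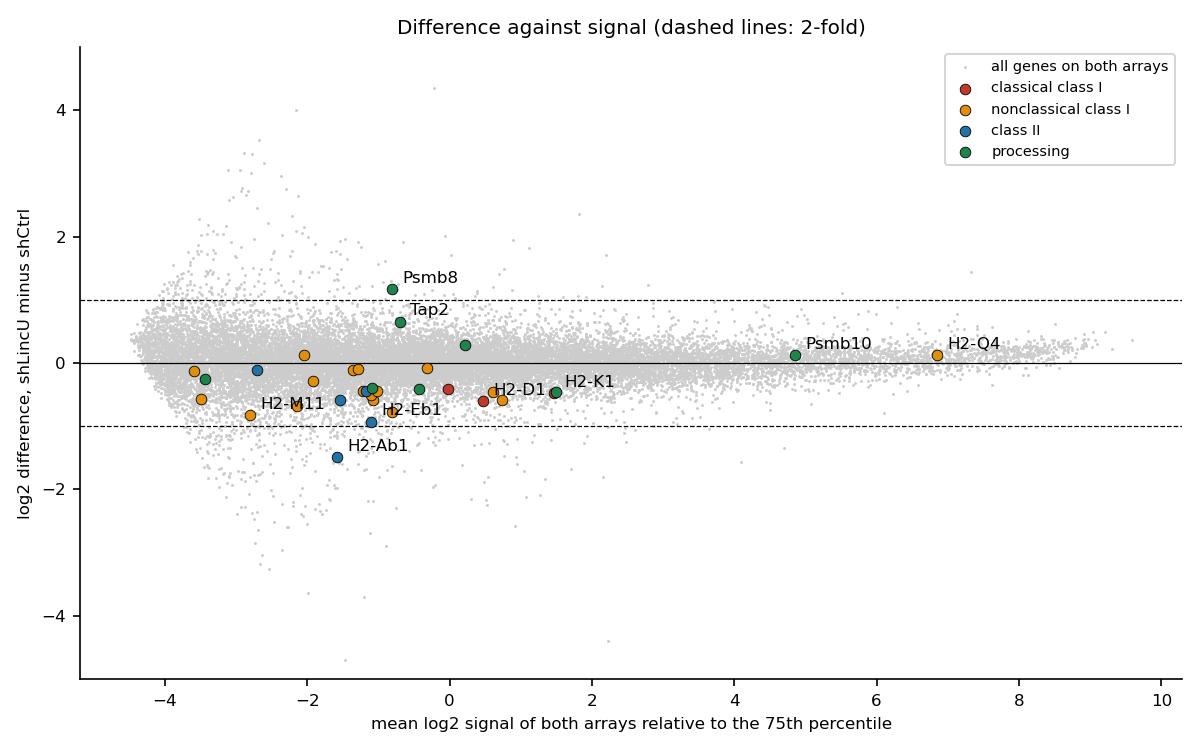
Log2 difference of every gene measured on both arrays (grey) and of the MHC and antigen presentation genes (colours) against their mean log2 signal; dashed lines mark 2-fold. Most members lie between 0 and -1, H2-Ab1 lies below the lower line and Psmb8 above the upper line.

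Promoters of class I and class II genes are known for a CCAAT-type box bound by the factor NF-Y, part of the module that RFX and the transactivators Nlrc5 and Ciita use. RefSeq promoter windows of GRCm38.p6, from 250 bases before to 50 bases after a gene's start, were matched by symbol for 36 of the 52 members, in 39 windows. Those printed here belong to the classical genes H2-K1 and H2-D1, to H2-Q4, which was not lower, to H2-Q7, which was, to B2m and to H2-Eb1. Each shows the 130 bases before the start of the gene, and capitals mark CCAAT on either strand, where ATTGG is its complement.
H2-K1: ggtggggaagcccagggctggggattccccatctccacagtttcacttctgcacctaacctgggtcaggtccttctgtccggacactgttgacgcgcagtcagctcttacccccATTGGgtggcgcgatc
H2-D1: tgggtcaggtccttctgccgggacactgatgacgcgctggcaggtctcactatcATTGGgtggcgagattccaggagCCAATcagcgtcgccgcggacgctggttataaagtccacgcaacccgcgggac
H2-Q4: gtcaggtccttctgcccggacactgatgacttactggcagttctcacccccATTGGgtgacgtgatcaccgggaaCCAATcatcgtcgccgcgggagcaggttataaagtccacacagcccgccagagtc
H2-Q7: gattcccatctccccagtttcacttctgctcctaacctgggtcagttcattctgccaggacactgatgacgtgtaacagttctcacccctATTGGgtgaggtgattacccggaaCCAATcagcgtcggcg
B2m: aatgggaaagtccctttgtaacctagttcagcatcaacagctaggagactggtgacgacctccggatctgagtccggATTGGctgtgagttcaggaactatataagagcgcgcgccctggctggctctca
H2-Eb1: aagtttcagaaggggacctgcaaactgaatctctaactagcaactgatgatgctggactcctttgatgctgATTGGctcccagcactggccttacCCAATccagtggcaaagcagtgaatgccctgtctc
They span chr17:34000348-34000477, chr17:35262964-35263093, chr17:35379487-35379616, chr17:35439025-35439154, chr2:122147557-122147686 and chr17:34305737-34305866, the first on the minus strand and the others on the plus strand.

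CCAAT lay in 33 of the 39 member windows and in 37.4% of the 32851 windows of all genes. By gene it was in those of 31 of 36 members: 2 of 2 classical class I genes, 16 of 19 nonclassical genes, 8 of 8 class II genes, 4 of 6 processing genes and H2-Ke6. The 8 class II genes do not include H2-Ab1, Cd74 or Ciita, for which no window was matched. Psmb8 is not among the genes with CCAAT, but windows were matched for only 6 processing genes. Whether Psmb8 was one of them was not recorded, so its promoter may not have been searched. H2-Q4, at 0.13, and H2-D1 and H2-Q7, at -0.60 and -0.50, carry 2 matches each in the stretch shown. A match describes letters and shows no binding.

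Genes that serve presentation without being part of the list lay near 0. Of the peptide loading list of 13 genes, 11 were measured on both arrays, 6 of them below 0, with a median of -0.10 and a range from -0.17 to 0.25. Its 4 widest differences were those of the proteasome activator subunit Psme1, at 0.25, the constitutive proteasome subunits Psmb7, at 0.21, and Psmb5, at 0.17, and the TAPBPR gene Tapbpl, at -0.17. Of 15 transcription factors of MHC genes 14 were measured and 4 were below 0, with a median of 0.06. Among them Irf1, an activator of class I genes, was at 0.30, Stat2 at 0.18 and Rfx5, of the class II enhanceosome, at -0.14. Of 7 genes of interferon gamma reception and its feedback 3 were below 0, with a median of 0.00, from Jak2 at -0.11 and Ptpn2 at -0.11 to Socs1 at 0.05 and the receptor chain Ifngr2 at 0.41. None of these 3 lists had a gene at 1.5-fold in either direction.

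Endosomal processing genes, which prepare class II peptides, were likewise near 0. Of 10, 9 were measured and 3 were below 0, with a median of 0.05. The ubiquitin ligase gene Marchf1, which removes class II from the surface, was at 0.33, the thiol reductase gene Ifi30 at -0.24, Cd63 at 0.21 and Ctsl at -0.13. Of 8 costimulation and checkpoint genes 6 were measured, from Cd276 at -0.47 and Cd80 at -0.21 to Cd47 at 0.22 and Cd274, which codes for PD-L1, at 0.56, with a median of 0.01. The 3 probes of Cd80 had an SD of 0.79.

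MHC-like genes outside the complex held larger differences. Of 16, 12 were measured and 8 were below 0, with a median of -0.20. H60a and H60b, ligands of the NKG2D receptor of natural killer cells, were at least 2-fold lower. H60a went from an intensity of 346.8 to 77.7, a difference of -1.59, and H60b went from 303 to 91.55, a difference of -1.15. The NKG2D ligand genes Raet1a, Raet1b, Raet1c and Raet1e lay between -0.54 and -0.36. On the other side a further NKG2D ligand gene, Ulbp1, was at 0.22, less than its scanner error of 0.27. Mr1, which presents microbial vitamin metabolites, was at 0.70.

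**Figure D4:**
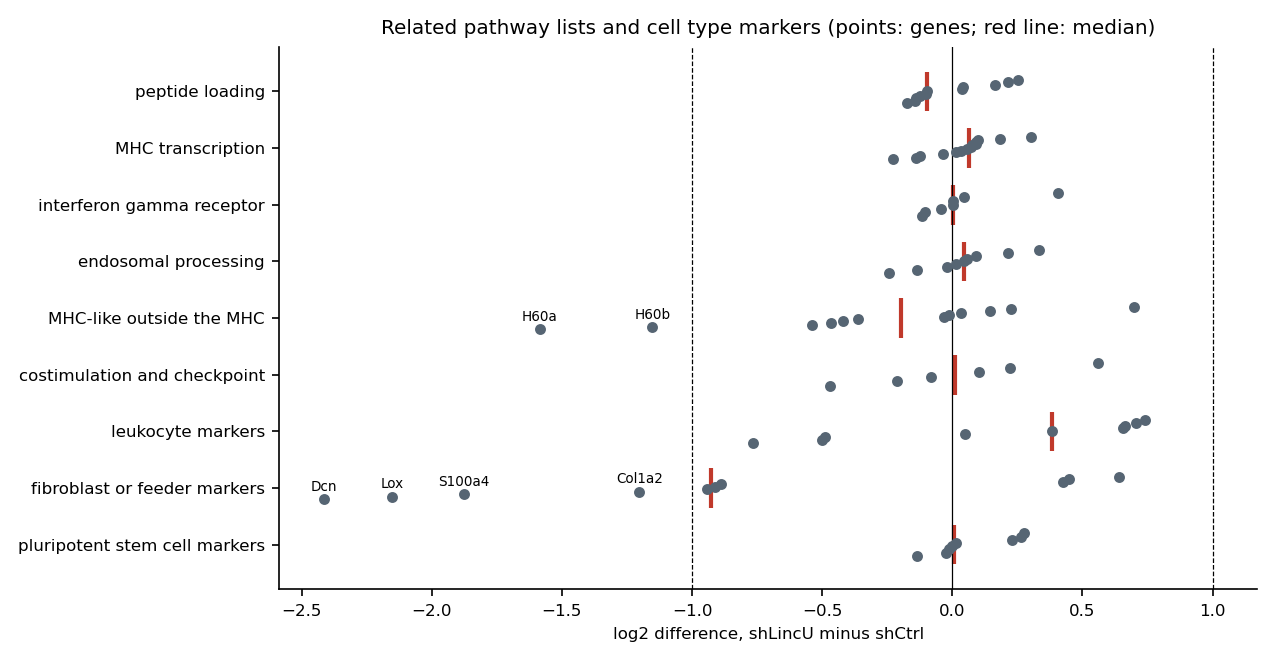
Log2 difference of each measured gene in 9 lists of related pathways and cell type markers, with a red line at the median of each list and dashed lines at 2-fold. Peptide loading, MHC transcription, interferon gamma receptor and endosomal genes lie within 0.41 of 0, while 4 fibroblast markers and 2 MHC-like genes lie below -1.

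The arrays were checked against markers of the labelled cells and of others the culture could hold. All 8 pluripotent stem cell markers were measured on both arrays, with a median difference of 0.01 and a range from -0.13 for Esrrb to 0.27 for Utf1. Nanog was at 0.26, and Dppa5a at 0.23. Fibroblast or feeder markers were all measured too: 7 of 10 were lower on the shLincU array, each at least 1.5-fold, 4 were at least 2-fold lower, and the median was -0.93. Dcn was at -2.42, Lox at -2.15, S100a4 at -1.88 and Col1a2 at -1.20, while Col3a1, Col1a1 and Pdgfrb were above 0, at 0.64, 0.45 and 0.43. Summed over the list, in multiples of each array's 75th percentile, fibroblast markers came to 14.4 on the shCtrl array and 7.56 on shLincU. The sum takes the brightest probe of each gene and is weighted towards bright genes such as Thy1. It is not a measure of cell number.

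Leukocyte markers went both ways. Of 12, 9 were measured on both arrays, 3 below 0 and 6 above, with a median of 0.38. Cd68 was at -0.76, while Fcer1g was at 0.74 and Cd79a at 0.70. Fcer1g and Cd79a were dim, with intensities of 100.7 and 26.83 on the shCtrl array. Among brighter markers Ptprc was at -0.50 and Laptm5 at -0.49, while Csf1r was at 0.66, Itgam at 0.38 and Cd3e at 0.05. Lyz2 was well above background on the shCtrl array only, at least 4.03-fold lower on the shLincU array, and Itgax and Tyrobp were not well above background on either array. The summed level, weighted likewise towards bright genes such as Ptprc, was 33.5 for shCtrl and 28.8 for shLincU. Fibroblast markers were thus lower on the array on which class I and class II genes were lower. Their part in the MHC values was not tested, and in bulk RNA fewer cells of a type cannot be told apart from less RNA per cell.

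The direction of the groups held under most ways of reading the arrays. Relative to the median of all genes in the same setting, the classical class I median lay between -0.66 and -0.32, the nonclassical between -0.48 and -0.24 and the class II median between -1.57 and -0.25. The processing median ran from -0.28 in the upper rows to 0.42 in the lower rows. Under normexp background correction H2-Ab1 was at -0.97, so no member was 2-fold lower, and 12 of the 17 nonclassical genes were below 0 in place of 15. Nlrc5 was then at 0.18 and H2-DMa at 0.15. Of the nonclassical genes with wide differences, H2-M11 moved from -0.83 to -0.24 under normexp and H2-Q10 from -0.69 to -0.27. Scaling to spike-in controls shifts every gene alike and puts the median of all genes at -0.87, so Tap2, Tapbp and Psmb10 were then at -0.24, -0.61 and -0.77 and Psmb8 at 0.27.

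**Figure D5:**
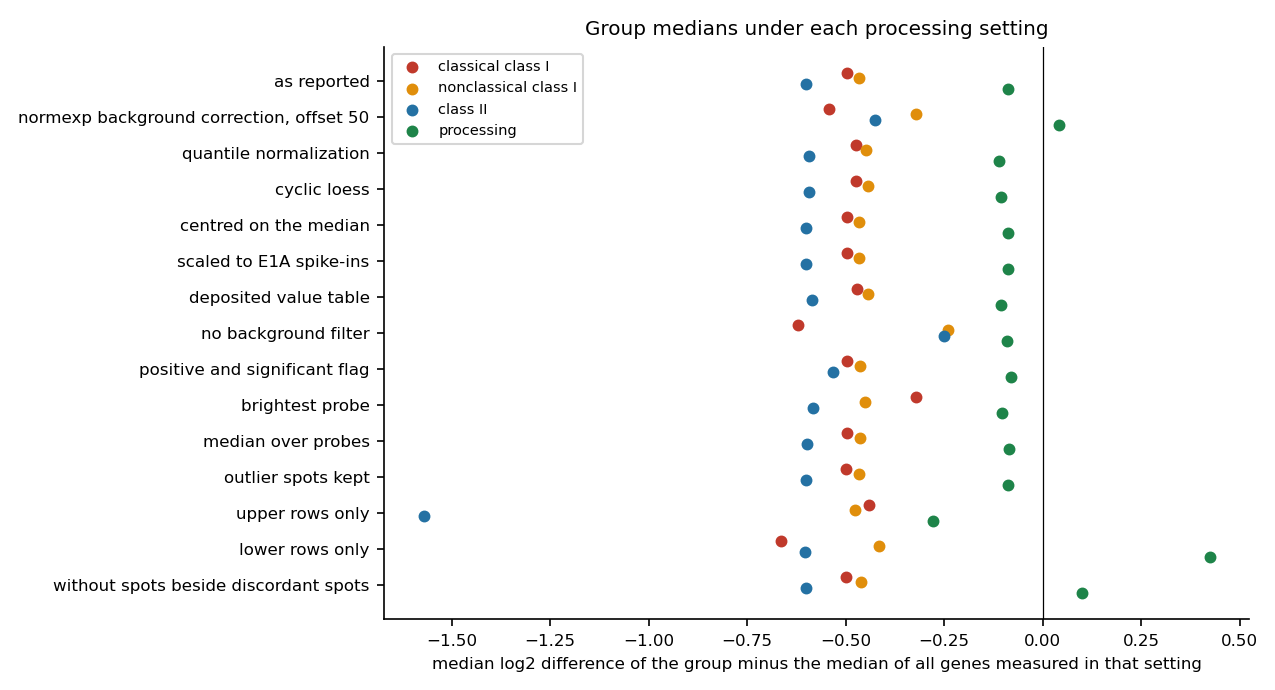
Median log2 difference of each group under each processing setting, minus the median of all genes measured in that setting. Classical class I, nonclassical class I and class II medians lie below 0 in all 15 settings shown, of which median centring and spike-in scaling equal the reported one by construction, and the processing median lies on both sides, from -0.28 to 0.42.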

How the data were processed

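Cy3-labelled RNA was measured on Agilent one-colour arrays, 1 for shCtrl and 1 for shLincU, grouped by the genotype in the labels. Per the submitters' processing notes, the authors' intensity values come from Agilent Feature Extraction 10.7.1.1. The processed intensity is background-corrected and detrended, per the file headers, and the coordinates are on mm9. Other deposited columns are 0 or 1 flags that mark outliers and spots well above background. The deposited value table holds log2 values with a median of 5.65 on both arrays; set against the scanner's log2 values over 56572 probes its slope was 1.00 on both, so it runs in the direction of the signal, and how it was centred is unknown.

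Levels are log2 processed intensities less the 75th percentile over all non-control probes of an array. Outlier spots were dropped, 98 for shCtrl and 138 for shLincU. Of the probes, 60.9% and 57.9% were well above background. A gene above background on 1 array only has only a bound, taken from the dimmest spot still well above background on the other or the probe's own signal where that is higher. Members keep the array's names; other genes were named through a RefSeq table of GRCm38.p6, 32923 probes by accession, 10209 by symbol and 519 by synonym. Members and lists were chosen with earlier results of these data known. The text names all classical class I and processing genes, all members at least 2-fold apart, the 5 nonclassical and 5 class II genes with the widest differences and the 4 widest of each further list, except 2 list genes that are not reported here; the others were named after their values were seen. A spot was called discordant at 2-fold or more, and a spot lay beside discordant ones when at least 2 of its 14 neighbours were so in 1 direction. Other promoter motifs were looked at besides CCAAT and are not reported. The calculation was tested on simulated data. Alternatives were normexp (offset 50), quantile and cyclic loess normalization, median centring, 8 E1A spike-in probes, the deposited table, 2 other background filters, 2 other probe summaries, outliers kept, upper or lower rows, spots beside discordant ones left out, and sizes of 1.5-fold and 3-fold. Python 3.11.15, numpy 2.4.6, pandas 2.3.3, matplotlib 3.10.9, R 4.3.3 with limma 3.58.1 served for the calculations.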

Additional observations from a re-analysis of the deposited data

How the results depend on the processing

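No paired analysis was possible because shCtrl and shLincU were hybridised to 1 array each, and none could be left out. The number of members at least 2-fold higher, 1 as reported, was 0 with E1A spike-in scaling, in the upper rows and at 3-fold, and 2 at 1.5-fold. The number at least 2-fold lower, 1 as reported, was 0 with normexp and at 3-fold, 2 with no background filter, 7 at 1.5-fold and 24 with E1A scaling, which moved the median of all genes to -0.87 and called 6798 genes lower. With E1A scaling the medians were -1.37 for classical class I, -1.34 for nonclassical class I, -1.47 for class II and -0.96 for processing. With normexp the nonclassical median was -0.24 and the class II median -0.34, and with no background filter they were -0.10 and -0.11, over probes that include those at background. In the upper rows the class II median was -1.55, resting on H2-Ab1 alone. In the lower rows the processing median was 0.45, over 4 genes of which only Tapbp was also measured in the upper rows. Of the 3 members seen on the shCtrl array only, 1 was left in the upper rows and 0 with no background filter, which sets no such class. Where the alternative's own construction does not give the cause, the cause was not tested. Over all genes, normexp gave 95 genes at least 2-fold higher and 108 lower, against 240 and 324, and no background filter gave 1462 and 1331; leaving out spots beside discordant spots gave 162 and 263, and the positive and significant flag 952 and 906. Low signal limits H2-T9, H2-T24 and Nlrc5, the dimmest measured members.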
